A study of Mus musculus with 14 samples.

Results

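The 29 genes described here encode enzymes of cholesterol and fatty acid synthesis and 3 proteins that regulate or carry sterols, and their mRNA was followed in macrophages that had been differentiated in culture from mouse bone marrow. The genes were chosen by symbol: 7 of the mevalonate pathway (Acat2, Hmgcs1, Mvk, Pmvk, Mvd, Idi1 and Fdps), 3 that lead from there to lanosterol (Fdft1, Sqle and Lss), 8 that turn lanosterol into cholesterol (Cyp51, Tm7sf2, Msmo1, Nsdhl, Hsd17b7, Ebp, Sc5d and Dhcr7), the regulators Srebf2 and Insig1 with the sterol carrier Stard4, 4 of fatty acid synthesis (Acly, Acaca, Fasn and Elovl6) and 4 desaturases (Scd1, Scd2, Fads1 and Fads2). All 29 had a row in the table of 47937 genes and all 29 were among the 13061 with enough counts to be tested. Wild-type cells were given the supernatant of mast cell intracellular traps (n = 3 libraries) or of mast cells (n = 5) for 3.5 h, or were left untreated (n = 6). The labels place the 14 libraries in 3 batches without saying what a batch was. Batch 1 held 1 trap, 2 mast cell and 2 untreated libraries, batch 2 held 1, 1 and 2, and batch 3 held 1, 2 and 2. The labels do not tie the libraries to separate animals or cultures, and the spread that the p-values measure may therefore be technical.

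Cells make cholesterol from acetyl-CoA through mevalonate, farnesyl diphosphate, squalene and lanosterol, and they make fatty acids from the same acetyl-CoA by way of malonyl-CoA. Srebf2 encodes SREBP-2, a membrane-bound transcription factor that is cleaved and enters the nucleus when sterols in the endoplasmic reticulum are low, where it switches on most genes of the sterol pathway. Insig1 encodes a protein that holds the SREBP precursor in the endoplasmic reticulum when sterols are plentiful, and it is itself a target of SREBP. Oxysterols, in turn, activate the LXR receptors, which in macrophages raise transcription of cholesterol export genes such as Abca1 and Abcg1.

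Promoters of these genes are known for binding sites of SREBP beside CCAAT boxes, which the factor NF-Y binds. RefSeq promoter windows (GRCm38.p6, 250 bases before to 50 after the gene start) were found for 22 of the 29 genes. The letters CCAAT, read on either strand, stood in 18 of these 22 (81.8%), against 41.1% of 27025 genes with a window. A form of the sterol regulatory element, CACNCCAC on either strand, stood in 3 of 22 (13.6%: Acat2, Hmgcs1 and Insig1), against 7.12% of all. The E-box CACGTG stood in 4 of 22 (18.2%: Hsd17b7, Sc5d, Dhcr7 and Insig1), against 8.09% of all. Neither of the longer motifs contains CCAAT. A gene with several windows was counted if any of them matched, and a match is a stretch of letters, not a measured binding site. The 4 windows below belong to mevalonate genes (Hmgcs1 and Idi1) and to genes from lanosterol to cholesterol (Msmo1 and Hsd17b7) whose level was lowest, of all 14 libraries, in untreated replicate 6 (described next). They are written 5′ to 3′ on the gene's strand, with matches to the CCAAT box and to CACNCCAC, on either strand, in capitals.
Hmgcs1, HMG-CoA synthase, chr13:119690101-119690400, plus strand: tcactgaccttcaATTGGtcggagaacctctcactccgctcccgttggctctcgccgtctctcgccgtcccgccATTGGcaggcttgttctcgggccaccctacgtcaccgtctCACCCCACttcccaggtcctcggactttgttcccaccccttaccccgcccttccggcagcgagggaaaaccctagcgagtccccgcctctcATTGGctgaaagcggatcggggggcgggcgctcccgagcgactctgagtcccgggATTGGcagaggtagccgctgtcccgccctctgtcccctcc
Idi1, isopentenyl diphosphate isomerase, chr13:8885356-8885655, plus strand: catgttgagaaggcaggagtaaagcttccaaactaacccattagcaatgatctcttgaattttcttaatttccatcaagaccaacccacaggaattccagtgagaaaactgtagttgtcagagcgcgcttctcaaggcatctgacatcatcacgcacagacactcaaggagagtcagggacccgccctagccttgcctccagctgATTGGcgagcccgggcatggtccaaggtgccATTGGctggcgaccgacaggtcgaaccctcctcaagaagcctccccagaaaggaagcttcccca
Msmo1, sterol C4 methyl oxidase, chr8:64733529-64733828, minus strand: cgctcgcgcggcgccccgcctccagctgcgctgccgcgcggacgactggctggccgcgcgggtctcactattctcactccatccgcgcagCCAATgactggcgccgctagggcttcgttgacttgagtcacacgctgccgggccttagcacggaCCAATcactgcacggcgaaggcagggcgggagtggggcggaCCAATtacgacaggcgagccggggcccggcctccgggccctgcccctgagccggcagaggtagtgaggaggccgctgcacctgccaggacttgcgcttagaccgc
Hsd17b7, sterol ketoreductase, chr1:169969156-169969455, minus strand: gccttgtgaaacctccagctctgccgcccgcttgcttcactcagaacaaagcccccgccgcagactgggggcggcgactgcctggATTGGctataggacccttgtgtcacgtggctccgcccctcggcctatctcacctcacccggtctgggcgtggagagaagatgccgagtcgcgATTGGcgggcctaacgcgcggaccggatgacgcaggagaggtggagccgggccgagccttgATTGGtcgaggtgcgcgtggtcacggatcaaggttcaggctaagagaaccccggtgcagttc
The Hmgcs1 window held 4 CCAAT matches and 1 CACNCCAC match, the Idi1 window 2 CCAAT matches, and the Msmo1 and Hsd17b7 windows 3 each.

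Total counts ran from 11729073 to 22720419 per library. Levels are given in CPM, the counts of a gene scaled to a common library total after TMM correction for composition. All 8 macrophage markers examined had counts in every library, with a summed level of 8193 to 19382 CPM. Mast cell markers (15 examined) summed to 89.4 to 2102 CPM in the trap supernatant libraries and 86.6 to 1470 CPM in the mast cell supernatant libraries, against 7.22 to 9.94 CPM in untreated libraries, where Mcpt4, Tpsb2, Tpsab1 and Mrgprb2 had 0 counts. Neutrophil markers (11 examined) summed to 78.3 to 299 CPM in the trap supernatant libraries, 74.0 to 311 CPM in the mast cell supernatant libraries and 92.9 to 327 CPM in the untreated ones, and Ly6g had 0 counts with trap supernatant. Whether RNA of other cells contributed to the levels below was not tested.

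Untreated replicate 6, a library of batch 3, stood apart in these genes. It had the lowest level of all 14 libraries for 23 of the 29 genes, whereas 12.9% of all genes tested had their lowest level there. The 29 genes summed to 1201 CPM in untreated replicate 6, against 1585 to 2186 CPM in the other libraries. Against untreated replicate 3 of the same batch, 27 of the 29 genes were lower in replicate 6, with a median log2 difference of -0.475, and 14 were lower by more than 0.5. Over all 13061 genes, the median of the same difference was 0.00 and 8.38% were lower by more than 0.5. In the other 4 pairs of libraries that share a group and a batch, the median of the 29 genes lay between -0.01 and 0.03, and 0 or 1 of them was lower by more than 0.5. These are values of single libraries and carry no test.

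Steps throughout the pathway were low in untreated replicate 6. Sqle, squalene epoxidase, was at 37.1 CPM there and at 76.6 CPM in untreated replicate 3. Idi1 was at 5.57 and 11.3 CPM, Fdps (farnesyl diphosphate synthase) at 4.43 and 8.93 CPM, and Hsd17b7 at 8.44 and 16.7 CPM in replicates 6 and 3. The elongase Elovl6 was at 3.23 CPM in replicate 6 and 6.78 CPM in replicate 3. All 3 genes from farnesyl diphosphate to lanosterol, all 8 from lanosterol to cholesterol and all 4 of fatty acid synthesis were lower in replicate 6. The 2 exceptions among the 29 were Mvk, mevalonate kinase, at 10.5 CPM in replicate 6 and 8.68 CPM in replicate 3, and Fads1, the delta-5 desaturase, at 147 and 139 CPM.

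Some targets of LXR moved the other way between these libraries. Of 11 genes tested under this name, 10 were higher in untreated replicate 6, with a median log2 difference of 0.12, while 49.8% of all genes were lower. The 11 include the receptor genes Nr1h2 and Nr1h3, and Srebf1 is counted again among the 27 further genes below. The smallest rises were 0.002 for Apoe, 0.07 for Smpdl3a and 0.08 for Lpcat3, and Srebf1 was lower (-0.19). Only 3 of the 11 were higher by more than 0.5, as were 7.08% of all genes. Those 3, picked after their values were seen, were Abca1 at 548 CPM in replicate 6 and 288 CPM in replicate 3, Abcg1 at 411 and 239 CPM, and Mylip, a ubiquitin ligase of lipoprotein receptors, at 89.6 and 46.4 CPM. Of 27 further genes of the sterol and fatty acid pathways that were tested, 16 were lower in replicate 6, with a median of -0.02, and 3 were lower by more than 0.5. The difference between replicates 6 and 3 was not confined to these lists. Over all genes the chi-square per gene between them was 14.8, against 1.82 to 5.13 in the other 4 pairs of libraries that share a group and a batch, and replicate 6 had the highest level of all libraries for 13.6% of genes. Total counts were 16771674 in replicate 6 and 16494926 in replicate 3, the share of counts from mitochondrial genes was 1.64% and 1.71%, and the macrophage markers summed to 9144 and 8335 CPM. What set it apart was not tested, and results that rest on it are given with and without it.

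**Figure D1:**
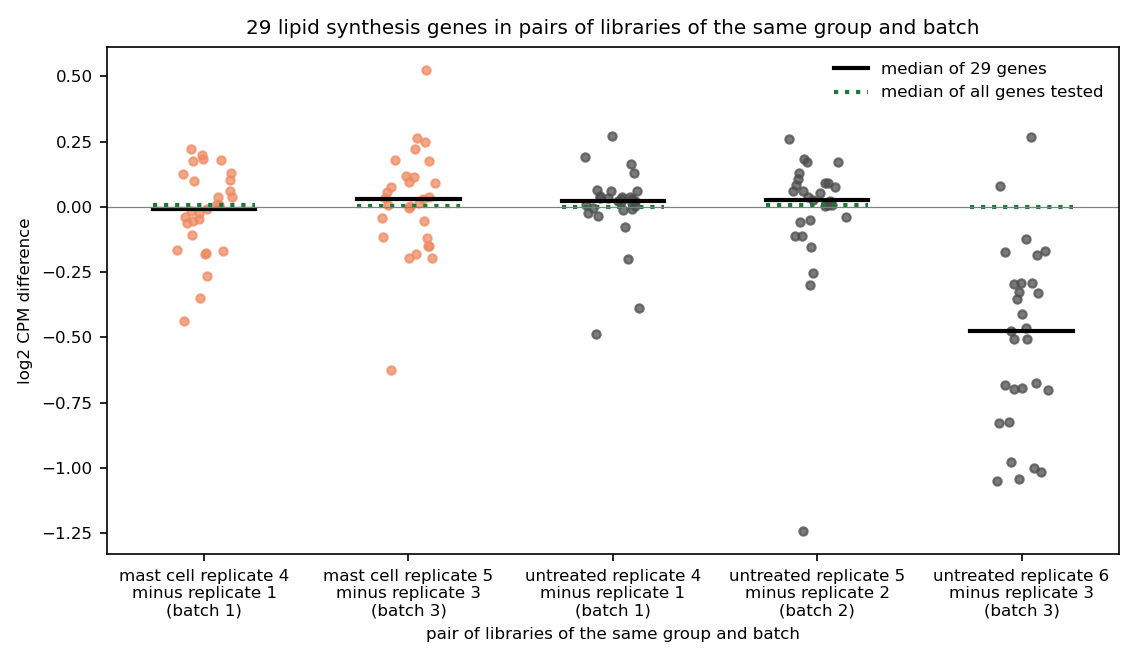
Log2 CPM difference (y axis) of each of the 29 genes (points) in the 5 pairs of libraries that share a group and a batch (x axis), with the median of the 29 genes as a solid bar and the median of all genes tested as a dotted bar. In 4 pairs the medians lie near 0, and in untreated replicate 6 minus untreated replicate 3 the median is -0.475.

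**Figure D2:**
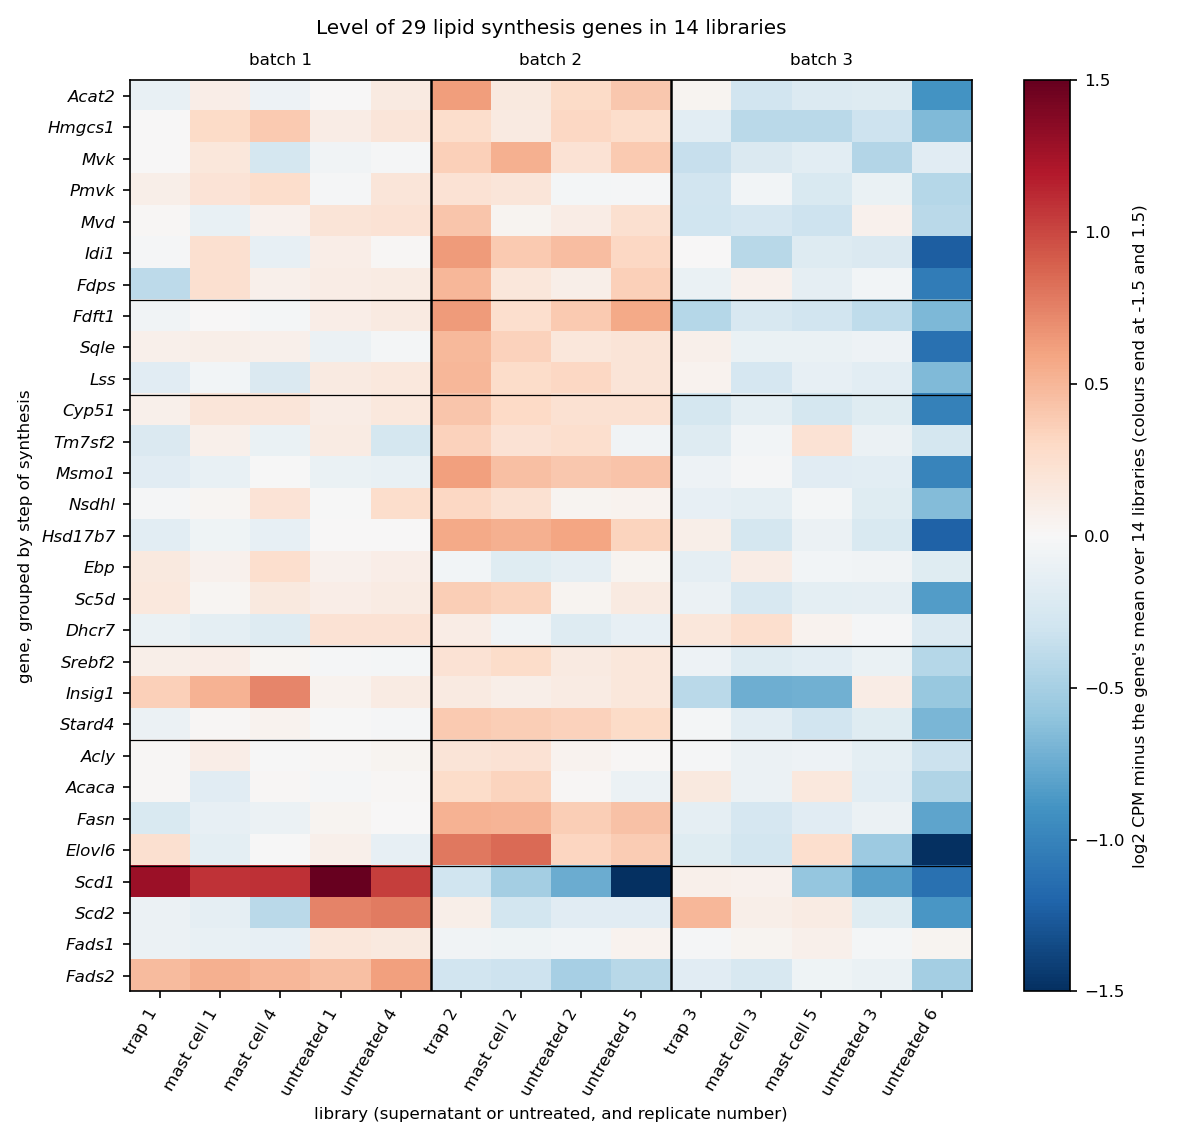
Log2 CPM of each gene (rows, grouped by step of synthesis) in each library (columns, by batch) relative to the gene's mean over the 14 libraries, red for higher and blue for lower. Untreated replicate 6 is the darkest blue column, and Scd1 and Fads2 are highest in batch 1.

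The first comparisons asked which of the 29 genes changed with either supernatant over all 3 batches, with batch as a term in the model. None did by the test used. With trap supernatant, 0 of 29 passed edgeR's quasi-likelihood F test at a Benjamini-Hochberg adjusted p of 0.05, whereas 224 of 13061 genes did (1.72%). With mast cell supernatant, 0 of 29 passed and 625 of all genes did (4.79%). Neither limma-voom nor DESeq2 gave a call among the 29 in either comparison. The smallest adjusted p was 0.297 with trap supernatant and 0.212 with mast cell supernatant. At an unadjusted p of 0.05, 3 genes passed with trap supernatant (Acaca, Acly and Elovl6) and 2 with mast cell supernatant (Acly and Elovl6), all positive, whereas 12.8% of all genes did with trap supernatant and 19.1% with mast cell supernatant. In bulk RNA, fewer cells with a transcript and less of it per cell cannot be told apart.

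Estimates were mostly small and positive. The log2 difference was above 0 for 26 of 29 genes with trap supernatant (median 0.12), against 47.8% of all genes (median -0.01). With mast cell supernatant it was above 0 for 22 of 29 (median 0.11), against 48.3% of all genes (median -0.01). Without untreated replicate 6 these were 21 of 29 with a median of 0.05 and 18 of 29 with a median of 0.02, and again 0 genes passed, against 1.64% and 4.47% of all genes. The 95% intervals lay within a 1.5-fold change in either direction for 23 genes with trap supernatant and 26 with mast cell supernatant, and within 2-fold for 28 and 29. Scd1, whose levels were the lowest of the set, had the highest upper bound with trap supernatant, 2.12-fold.

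Among the mevalonate genes the largest estimate was 0.27 ± 0.17 (log2, SE) for Idi1 with trap supernatant (adjusted p 0.57) and 0.16 ± 0.17 for Fdps with mast cell supernatant (0.657). Sqle, whose product opens the way to the sterol ring, had the largest estimate of its step in both comparisons, 0.34 ± 0.17 (adjusted p 0.42) and 0.24 ± 0.15 (0.398). It averaged 94.4 ± 15.7 CPM with trap supernatant (SD, n = 3) and 84.6 ± 11.3 CPM with mast cell supernatant (n = 5), against 75.2 ± 19.97 CPM untreated (n = 6). The estimates of Sqle were 0.21 with trap supernatant and 0.10 with mast cell supernatant when untreated replicate 6 was left out. Leaving out 1 library in turn gave 0.14 to 0.40 for Idi1 with trap supernatant and 0.02 to 0.26 for Fdps with mast cell supernatant, each lowest without untreated replicate 6. In batch 1 Sqle was at 85.3 CPM with trap supernatant and 85.5 and 84.9 CPM with mast cell supernatant, against 75.7 and 79.1 CPM untreated. In batch 2 it was at 113 and 103 CPM, against 90.6 and 92.2 CPM untreated. In batch 3 it was at 85.3, 74.96 and 75.2 CPM, against 76.6 and 37.1 CPM untreated, so there the groups overlapped.

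From lanosterol to cholesterol, Sc5d (sterol C5 desaturase) had the largest estimate with trap supernatant, 0.23 ± 0.11 (adjusted p 0.415), and Msmo1 with mast cell supernatant, 0.18 ± 0.13 (0.473). Leaving out untreated replicate 6 gave 0.14 and 0.06. Msmo1 was highest in batch 2 in every group. In batch 1 it was at 105 CPM with trap supernatant and 109 and 117 CPM with mast cell supernatant, against 109 CPM in both untreated libraries. In batch 2 it was at 180.3 CPM with trap and 160.1 CPM with mast cell supernatant, against 156 and 158 CPM untreated. In batch 3 it was at 111 CPM with trap supernatant and 116 and 104 CPM with mast cell supernatant, against 105 and 59.1 CPM untreated.

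Of the regulators, Srebf2 had 257 ± 25.9 CPM with trap supernatant, 246 ± 32.8 CPM with mast cell supernatant and 237 ± 33.2 CPM untreated. Its log2 differences were 0.12 ± 0.06 (adjusted p 0.418) and 0.09 ± 0.05 (0.359), or 0.08 and 0.05 without untreated replicate 6. Stard4, which moves cholesterol between membranes, had 48.8 ± 9.25, 45.7 ± 8.10 and 44.996 ± 10.7 CPM in the trap supernatant, mast cell supernatant and untreated groups, with estimates of 0.13 ± 0.10 with trap and 0.10 ± 0.08 with mast cell supernatant, or 0.06 and 0.02 without untreated replicate 6. Insig1 had estimates near 0 in both comparisons, with 95% intervals of -0.45 to 0.45 with trap supernatant and -0.39 to 0.39 with mast cell supernatant.

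Elovl6, which lengthens long-chain fatty acids, had the largest estimate of the fatty acid genes, 0.47 ± 0.21 with trap supernatant (adjusted p 0.387) and 0.45 ± 0.19 with mast cell supernatant (0.212), or 0.33 and 0.29 without untreated replicate 6. Acaca (acetyl-CoA carboxylase, which makes malonyl-CoA) had 0.25 ± 0.10 (adjusted p 0.297) and 0.19 ± 0.09 (0.262). Acly, which splits citrate into acetyl-CoA, had 0.12 ± 0.06 (0.386) and 0.11 ± 0.05 (0.231). Fasn, fatty acid synthase, had 0.05 in both. Of the desaturases, Scd1 had 0.52 ± 0.26 (0.429) and 0.25 ± 0.23 (0.602, with 0.13 to 0.47 when 1 library was left out), and Fads1 was the one desaturase with a negative estimate in both, -0.11 ± 0.06 (0.483) and -0.10 ± 0.05 (0.333).

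The supernatants were also set against each other. With trap supernatant against mast cell supernatant, 0 of the 29 genes and 0 of all 13061 genes (0%) passed, 0 of the 29 and 4.36% of all genes reached an unadjusted p of 0.05, and limma-voom and DESeq2 gave no call among the 29. The largest estimate in each step was 0.20 for Acat2 (acetoacetyl-CoA thiolase), 0.15 for Lss (lanosterol synthase), -0.12 for Tm7sf2 (sterol C14 reductase), 0.03 for Stard4, 0.06 for Acaca and 0.34 for Scd2. Leaving out 1 library in turn gave 0.10 to 0.37 for Acat2, 0.04 to 0.30 for Lss, -0.24 to -0.06 for Tm7sf2, 0.00 to 0.12 for Acaca and 0.07 to 0.59 for Scd2. For Lss and Scd2 the lowest value came without trap supernatant replicate 3, and for Acat2, Lss and Scd2 the highest came without trap supernatant replicate 1. Every interval included 0, and 27 of 29 lay within a 1.5-fold change. The widest upper bound was 2.14-fold, for Scd2. The comparisons share the untreated libraries, so their estimates are not independent.

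**Figure D3:**
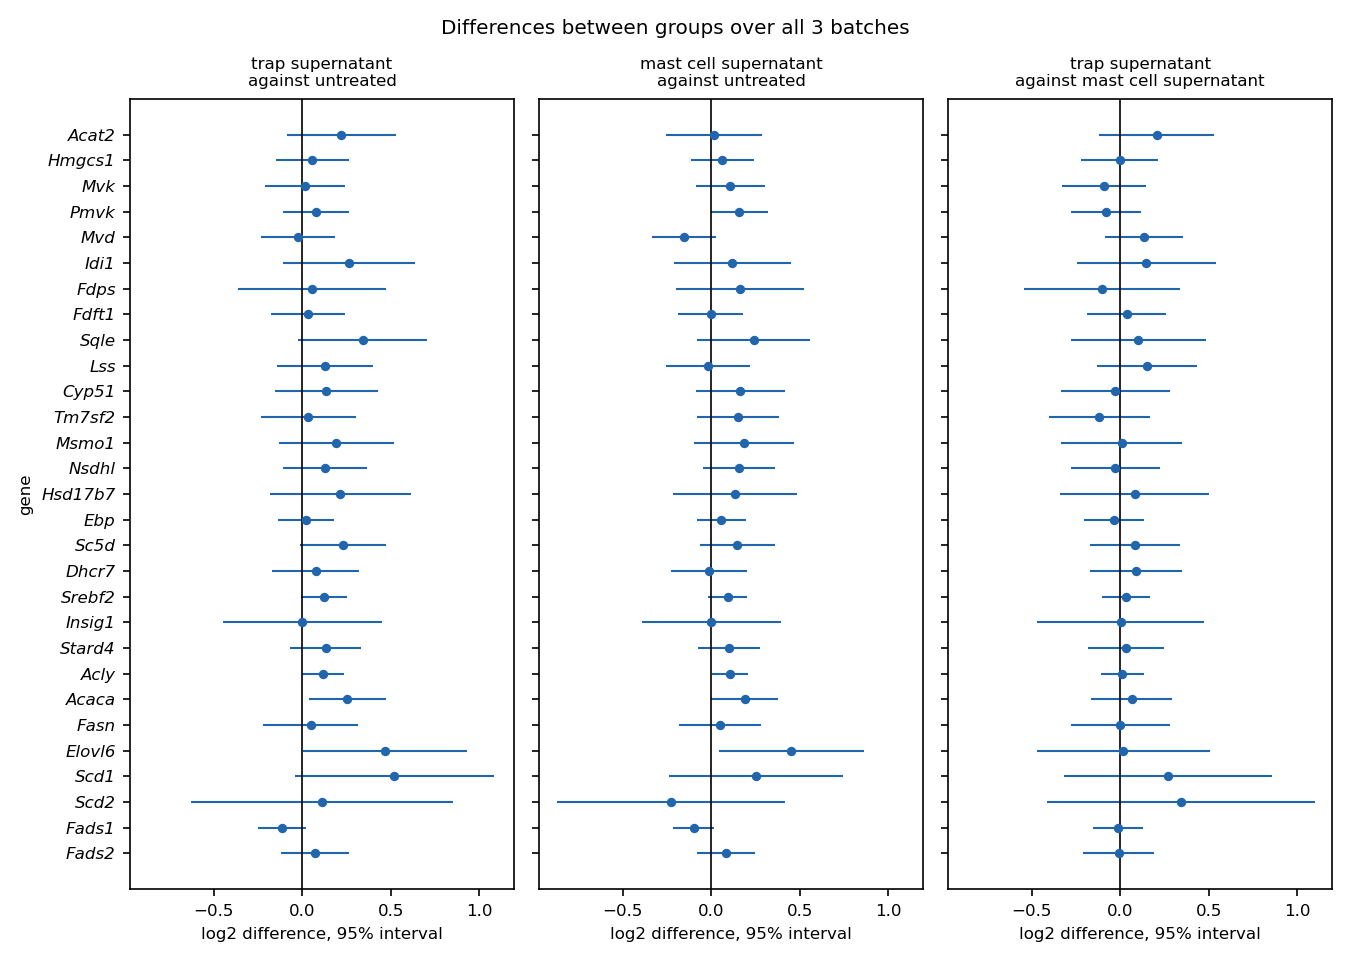
Log2 difference (x axis) with its 95% interval (bars) for each of the 29 genes (y axis) in the 3 comparisons over all batches. With trap supernatant 26 of 29 estimates lie above 0 and with mast cell supernatant 22 of 29, and no gene passed the test in any panel.

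Most of the genes differed between batches. Among the untreated libraries alone, 20 of the 29 genes differed between the 3 batches by edgeR's quasi-likelihood F test, against 33.6% of all genes (4383). Without untreated replicate 6, 16 passed (29.5% of all genes) and 15 of those were among the 20. Without untreated replicate 3, 25 passed (37.1% of all genes). Summed macrophage markers also followed the batch, at 17622 to 19382 CPM in batch 1, 11000.4 to 11826 CPM in batch 2 and 8193 to 9144 CPM in batch 3. Their part in these differences was not tested.

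The smallest adjusted p belonged to desaturases that were high in batch 1. Scd1, a delta-9 desaturase, was at 7.53 and 5.35 CPM in untreated libraries of batch 1, at 1.55 and 0.618 CPM in batch 2 and at 1.48 and 1.197 CPM in batch 3 (adjusted p 5.05e-06). Its lowest count in a library was 9. Fads2, the delta-6 desaturase, was at 34.4 and 38.6 CPM in batch 1, 17.8 and 18.9 CPM in batch 2 and 23.6 and 17.7 CPM in batch 3 (6.77e-06). Scd2, a paralog of Scd1 that can share reads with it, was at 131 and 134 CPM, 69.1 and 69.3 CPM, and 68.5 and 42.6 CPM in batches 1, 2 and 3 (0.00204). Batch 1 was also highest for Scd1 and Fads2 in the treated libraries, where Scd1 was at 5.54 to 6.36 CPM in batch 1, 1.83 to 2.13 CPM in batch 2 and 1.74 to 2.74 CPM in batch 3.

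Other genes had their highest untreated levels in batch 2. Fdft1 (squalene synthase) was at 47.3 and 48.4 CPM in batch 1, 57.9 and 65.7 CPM in batch 2 and 34.0 and 27.7 CPM in batch 3 (adjusted p 2.89e-05). Batch 3 minus batch 2 was -1.002 ± 0.12 on the log2 scale. Hmgcs1 (HMG-CoA synthase) was at 111 and 116 CPM, 127 and 123 CPM, and 83.03 and 64.9 CPM in batches 1, 2 and 3 (0.000714). Fasn was at 129.9 and 127 CPM, 164 and 171 CPM, and 119 and 73.4 CPM (0.00349). For these 3 genes both libraries of batch 3 lay below both of batch 2, so the order does not rest on replicate 6. Acat2 (0.0102) was at 14.7 and 16.1 CPM, 18.0 and 19.4 CPM, and 12.9 and 7.90 CPM. Acat2 missed the threshold without untreated replicate 6, as did Lss, Nsdhl, Sc5d and Acly, with adjusted p of 0.0593 to 0.199, while Sqle passed (0.0399). The other genes past the threshold were Lss, Elovl6, Hsd17b7, Srebf2, Msmo1, Dhcr7, Acly, Idi1, Nsdhl, Mvk, Cyp51, Sc5d and Stard4, with adjusted p of 0.000801 to 0.0161.

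In the treated libraries, the values of a batch are those of its trap supernatant library and of its 1 or 2 mast cell supernatant libraries. Hmgcs1 was at 103, 125 and 134 CPM in batch 1, 124 and 113 CPM in batch 2 and 91.9, 77.6 and 77.4 CPM in batch 3. Fdft1 was at 42.8, 44.2 and 43.5 CPM in batch 1, 68.7 and 52.5 CPM in batch 2 and 32.9, 37.4 and 36.3 CPM in batch 3. Both were lowest in batch 3, as in the untreated libraries. Acat2 was at 13.6, 15.8 and 13.9 CPM, 22.7 and 16.2 CPM, and 15.2, 11.98 and 12.8 CPM in batches 1, 2 and 3. The treated and untreated ranges overlapped in every batch for Hmgcs1 and Acat2, and in batches 2 and 3 for Fdft1.

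Hsd17b7 was at 17.6, 18.7 and 18.04 CPM in treated libraries of batch 1, against 19.6 and 19.7 CPM untreated. It was at 29.1 and 28.3 CPM in batch 2, against 29.4 and 24.7 CPM untreated, and at 20.8, 16.3 and 18.5 CPM in batch 3, against 16.7 and 8.44 CPM untreated. Its treated libraries lay below the untreated ones in batch 1 and among them in batch 2. Fasn was at 108, 116 and 119 CPM with supernatant in batch 1, 182 and 180.1 CPM in batch 2 and 116, 107 and 112 CPM in batch 3, which is below, above and within the untreated ranges of these batches. Fads2 was at 35.1, 36.6 and 35.6 CPM, 20.6 and 20.3 CPM, and 22.3, 21.3 and 24.1 CPM with supernatant in batches 1, 2 and 3.

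Srebf2 was at 258, 259 and 248 CPM with supernatant in batch 1, against 239.7 and 238 CPM untreated. Batch 2 gave 282 and 293 CPM, against 266 and 273 CPM untreated, and batch 3 gave 230.5, 213 and 217 CPM, against 226 and 179.7 CPM untreated. The treated libraries of Srebf2 were above the untreated ones in batches 1 and 2 and overlapped them in batch 3. Stard4 was at 42.6, 45.8 and 46.95 CPM with supernatant in batch 1, against 44.8 and 44.6 CPM untreated. It was at 59.4 and 58.3 CPM in batch 2, against 57.5 and 55.2 CPM untreated, and at 44.3, 40.4 and 37.1 CPM in batch 3, against 39.9 and 28.01 CPM untreated. The groups of Stard4 did not overlap in batch 2 alone, where the treated libraries were higher. With 2 or 3 libraries against 2, groups can lie apart without any effect, here and below. The share of all genes whose groups lay apart was not counted.

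Supernatant libraries were then set against the untreated libraries of their own batch, with both supernatants in 1 group so that each side had at least 2 libraries. In batch 1, 3 of 29 genes fell and 0 rose. In all genes 7.56% changed there, 3.02% down and 4.53% up. Scd2 was at 73.4 CPM with trap supernatant and 70.8 and 58.9 CPM with mast cell supernatant, against 131 and 134 CPM untreated, a log2 difference of -0.96 ± 0.19 (adjusted p 0.0119). Fads1 was at 134, 132 and 130.4 CPM, against 161 and 158 CPM untreated, a difference of -0.27 ± 0.06 (0.0114). Dhcr7, which carries out the last step to cholesterol, was at 31.9, 31.0 and 30.0 CPM, against 39.6 and 39.8 CPM untreated, a difference of -0.36 ± 0.09 (0.0193). For each of these genes the groups of batch 1 did not overlap, and each was lower with either supernatant.

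The largest estimates of other steps in batch 1 did not pass. They were -0.21 for Mvd (diphosphomevalonate decarboxylase), -0.28 for Lss, -0.17 for Fasn and 0.46 ± 0.17 for Insig1 (adjusted p 0.156). Insig1 was at 154 CPM with trap supernatant and 172 and 201 CPM with mast cell supernatant, against 125 and 131 CPM untreated. Its groups did not overlap in batch 1. When untreated replicate 6 or untreated replicate 3 of batch 3, which enter that test through the shared estimate of spread and the scaling, was left out, Insig1 passed in batch 1 as higher (adjusted p 0.0159 and 0.0104), with estimates of 0.45 and 0.47. The calls of Scd2, Fads1 and Dhcr7 were lost when either untreated library of batch 1 was left out, with adjusted p up to 0.156, while their estimates stayed between -1.01 and -0.88, between -0.28 and -0.25, and between -0.37 and -0.34. That of Dhcr7 was also lost without mast cell supernatant replicate 4.

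No gene of the 29 passed in batch 2, against 1.19% of all genes (156), and 4 reached an unadjusted p of 0.05, as did 10.5% of all genes. DESeq2 and limma-voom also gave 0. There 24 of 29 estimates were positive, with a median of 0.13, against 48.2% of all genes with a median of -0.01. Elovl6 was at 17.2 CPM with trap and 17.8 CPM with mast cell supernatant, against 12.4 and 12.9 CPM untreated (0.47 ± 0.22, adjusted p 0.478). Scd1 had the largest estimate, 0.86 ± 0.37 (0.394), with 2.13 CPM in trap and 1.83 CPM in mast cell supernatant, against 1.55 and 0.618 CPM untreated. It was 1.67 without untreated replicate 2 and 0.35 without untreated replicate 5. Acaca was at 33.9 and 35.3 CPM, against 28.5 and 26.4 CPM untreated (0.34 ± 0.11, adjusted p 0.222). The largest estimates of other steps were 0.22 for Pmvk (phosphomevalonate kinase), 0.24 for Sqle, 0.27 for Sc5d and 0.10 for Srebf2. Trap supernatant replicate 2, the one trap library of this batch, had the highest level of all 14 libraries for 14 of the 29 genes, against 6.27% of all genes.

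In batch 3, 3 of 29 genes rose and 0 fell, against 8.41% of all genes, 3.12% up and 5.3% down. Elovl6 was at 8.71 CPM with trap supernatant and 8.16 and 11.8 CPM with mast cell supernatant, against 6.78 and 3.23 CPM untreated (0.93 ± 0.24, adjusted p 0.0246). Acaca was at 31.1, 26.4 and 31.4 CPM, against 25.1 and 20.5 CPM untreated (0.38 ± 0.11, 0.0385). Scd2 was at 109.9, 82.8 and 84.7 CPM, against 68.5 and 42.6 CPM untreated (0.74 ± 0.20, 0.0474). Positive estimates numbered 27 of 29, with a median of 0.27, against 50.1% of all genes with a median of 0.00. The largest of other steps were 0.45 for Idi1, 0.47 for Sqle, 0.56 for Hsd17b7, -0.42 for Insig1 and, in the desaturases, 0.84 for Scd1, none past the threshold.

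The batch 3 result turned on which untreated library served as baseline, and also on a treated library. Without untreated replicate 6, none of the 3 rises passed: Elovl6 had an estimate of 0.49 (adjusted p 0.27), Acaca 0.24 (0.368) and Scd2 0.43 (0.283). The estimates of Sqle, Idi1 and Hsd17b7 were then 0.04, 0.03 and 0.15. The median of the 29 genes was then 0.05, with 19 positive and 10 negative, and the 1 gene past the threshold was Insig1, as lower (-0.72 ± 0.13, adjusted p 0.00854), against 3.21% of all genes. Without untreated replicate 3, 19 of the 29 genes rose and 0 fell, with a median of 0.54, against 14.2% of all genes. Sqle then had 1.084 ± 0.10, Idi1 1.06, Hsd17b7 1.14 and Insig1 -0.04. Insig1 was at 90.9 CPM with trap supernatant and 72.8 and 73.2 CPM with mast cell supernatant, against 130.0 CPM in untreated replicate 3 and 81.3 CPM in replicate 6, so replicate 6 lay among the treated libraries. With the lone untreated library left in each case, its spread was assumed to be that of the other groups. The calls of Elovl6, Acaca and Scd2 were also lost without mast cell supernatant replicate 5, where 0 of the 29 genes passed. A fit without a library of batch 1 or 2 changes the batch 3 test only through the shared estimate of spread and the scaling. Over the 14 fits that each leave out 1 library, Elovl6 passed in 12, Acaca in 7 and Scd2 in 4.

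**Figure D4:**
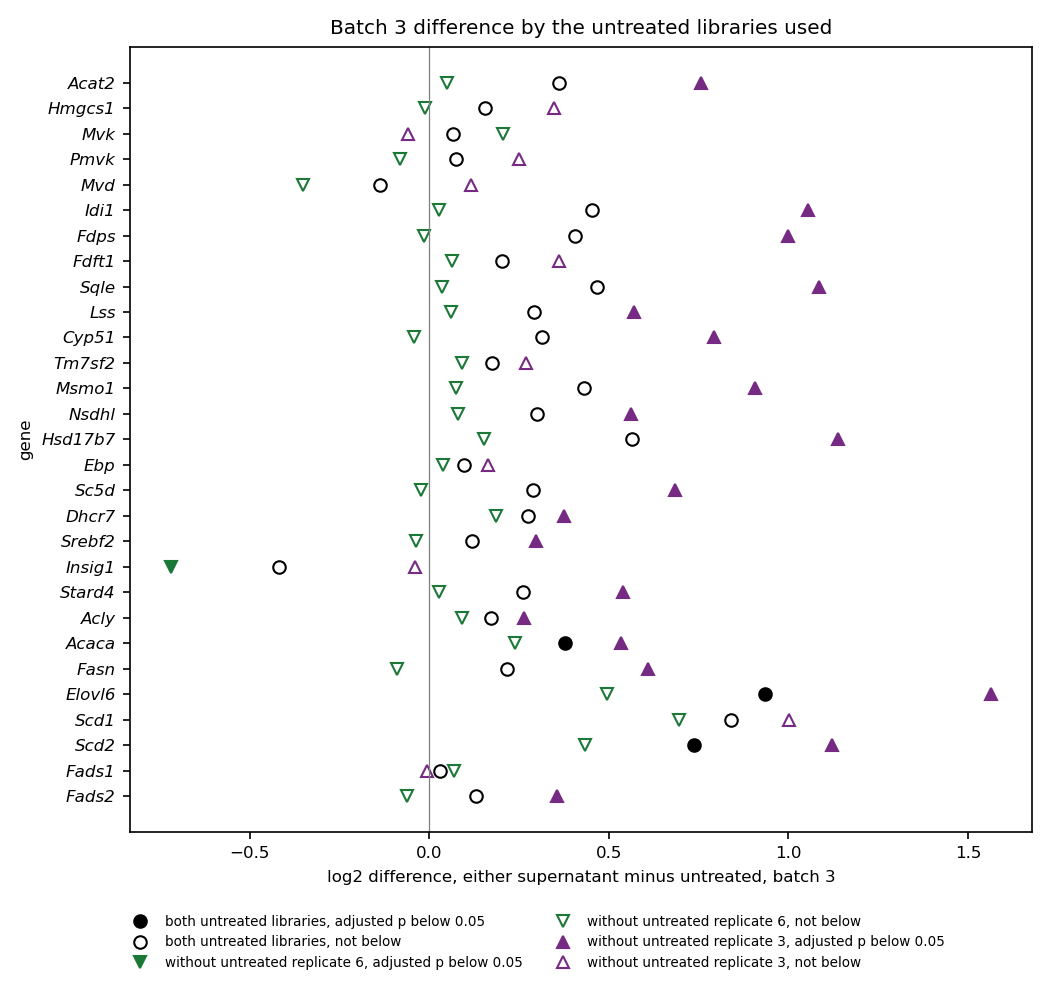
Log2 difference of either supernatant minus untreated in batch 3 (x axis) for each gene (y axis), with both untreated libraries (circles), without replicate 6 (triangles pointing down) and without replicate 3 (triangles pointing up). Filled symbols passed at an adjusted p of 0.05: 3, 1 and 19 genes.

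Whether the response differed between batches was tested directly. Dhcr7 (adjusted p 0.00972) and Scd2 (0.0124) passed, 2 of 29, against 5.36% of all genes. Dhcr7 had log2 differences of -0.36 in batch 1, 0.19 in batch 2 and 0.27 in batch 3. Its treated levels in batch 2 were 36.9 CPM with trap and 33.1 CPM with mast cell supernatant, against 29.8 and 31.5 CPM untreated. In batch 3 they were 38.6, 40.7 and 35.5 CPM, against 33.7 and 29.6 CPM untreated. Scd2 had -0.96, 0.09 and 0.74 in batches 1, 2 and 3, and in batch 2 it was at 82.9 and 64.2 CPM, against 69.1 and 69.3 CPM untreated. Over the 3 batches Dhcr7 ran from 30.0 to 40.7 CPM with either supernatant and from 29.6 to 39.8 CPM untreated, and Scd2 from 58.9 to 109.9 CPM with either supernatant and from 42.6 to 134 CPM untreated.

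Without untreated replicate 6, Dhcr7 (0.0175), Scd2 (0.00819) and Insig1 (0.00406) passed, against 4.32% of all genes. Without untreated replicate 3, 13 of the 29 passed, against 9.03% of all genes, among them Dhcr7 and Scd2 but not Insig1. Leaving out untreated replicate 1 or 4, the baseline of batch 1, left no gene of the 29 past the threshold, with adjusted p up to 0.0749 for Dhcr7 and 0.0646 for Scd2.

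**Figure D5:**
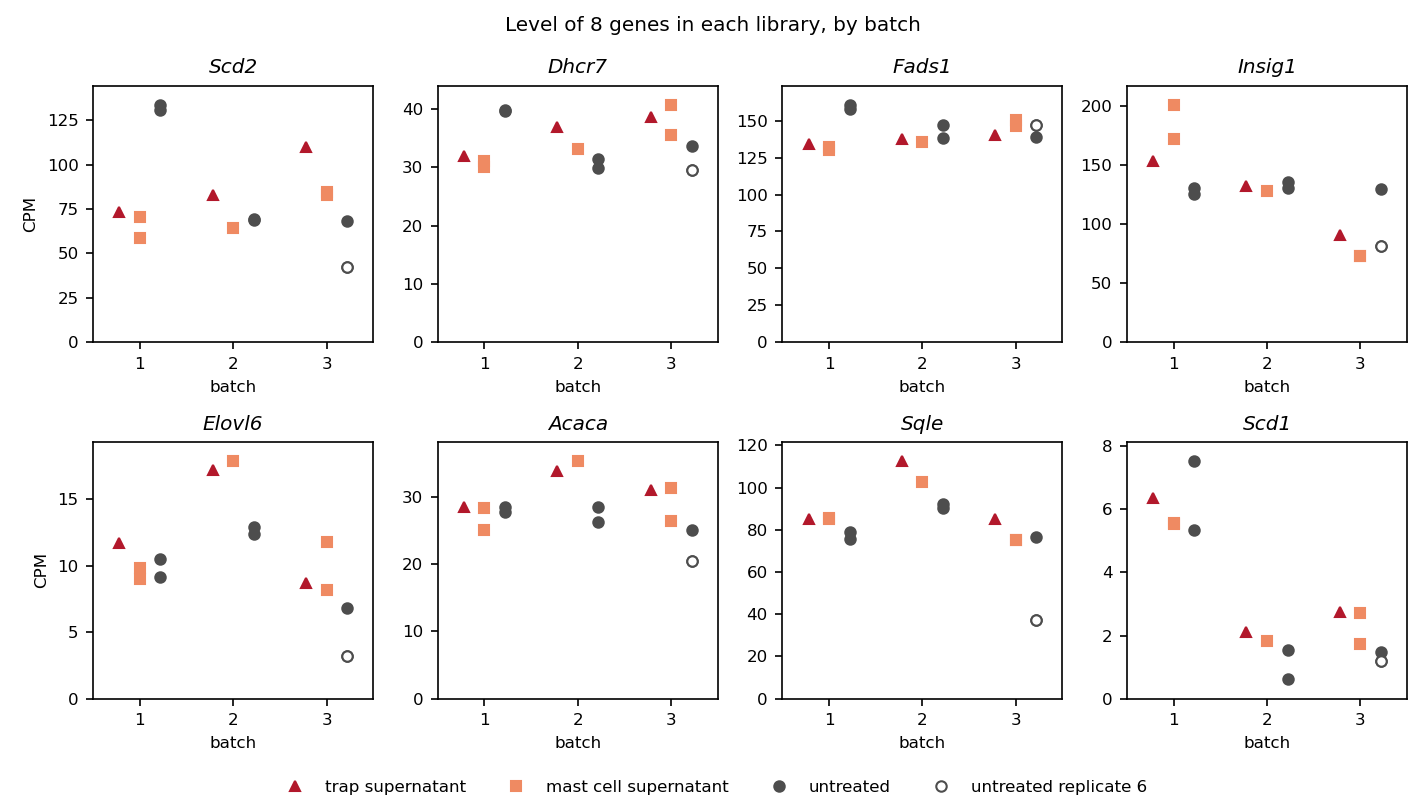
Level in CPM (y axis) of 8 genes in each library by batch (x axis), with triangles for trap supernatant, squares for mast cell supernatant and circles for untreated libraries, the open circle being untreated replicate 6. In batch 1 the treated libraries of Scd2 and Dhcr7 lie below the untreated ones, and in batch 3 above them.

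Taking each supernatant by itself, 6 genes had a trap supernatant level above the untreated mean of the batch in all 3 batches (Sqle, Sc5d, Srebf2, Acaca, Elovl6 and Scd1) and Fads1 was below it in all 3, as against 16.1% of all genes above and 17.2% below. With mast cell supernatant 8 genes were above in all 3 (Pmvk, Sqle, Cyp51, Tm7sf2, Msmo1, Srebf2, Stard4 and Acly) and Mvd was below, as against 14.5% of all genes above and 16.9% below. Without untreated replicate 6, 7 genes were above in all 3 batches with trap supernatant, the same 6 and Mvk, and 0 below, against 15.4% and 15.7% of all genes. With mast cell supernatant 3 were then above (Tm7sf2, Msmo1 and Acly) and 2 below (Acat2 and Mvd), against 13.8% and 15.7% of all genes. These signs rest on 1 or 2 libraries a batch and carry no test. Lss was at 35.9 CPM with trap and 39.2 and 35.0 CPM with mast cell supernatant against 44.4 and 44.98 CPM untreated in batch 1, and at 57.3 and 49.2 CPM against 50.1 and 46.3 CPM in batch 2. In batch 3 Lss was at 42.1, 34.1 and 37.0 CPM, against 36.2 and 25.5 CPM untreated.

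Exon lengths here join the exons of all annotated transcripts of a gene, so levels per kilobase compare genes only roughly. Per kilobase of exon, the untreated mean was highest for Insig1 (39.5 CPM per kb), followed by Acly (34.5), Srebf2 (33.0) and Fads1 (30.8). It was lowest for Scd1 (0.604), Elovl6 (1.42) and Acaca (1.53). The ranges over the 6 untreated libraries of the first 3 overlapped, at 26.3 to 43.9 CPM per kb for Insig1, 28.6 to 37.2 for Acly and 25.02 to 38.0 for Srebf2, so their order is not settled by these libraries. Some exons overlap those of other genes (GENCODE release M21 on GRCm38), and the strand setting of the counting is not given in the sources used here. Fdps shares 26.7% of its exon bases with Gm43738 on the same strand, Tm7sf2 shares 12.1% with Vps51 on the same strand, and Fdft1 shares 18.3% with Ctsb on the opposite strand, so the levels of these 3 are uncertain.

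Over all batches, other genes of sterol and fatty acid metabolism gave few calls. These are to be read against the 1.72% of all genes called with trap supernatant and the 4.79% called with mast cell supernatant. Of 27 further synthesis and SREBP pathway genes tested, 0 passed with trap supernatant, where 4 reached an unadjusted p of 0.05. With mast cell supernatant 1 rose, Lbr, a sterol C14 reductase of the nuclear envelope (0.40 ± 0.07, adjusted p 0.0021). Of the 11 genes listed as LXR targets, among them the receptor genes Nr1h2 and Nr1h3, 1 fell with either supernatant. It was Arl4c, a small GTPase, with -0.56 ± 0.09 with trap (adjusted p 0.0038) and -0.69 ± 0.08 with mast cell supernatant (6.48e-05). Arl4c also passed as lower in each of the 3 batches. It was at 116, 116 and 149 CPM with trap supernatant and at 108 to 128 CPM with mast cell supernatant, against 155 to 254 CPM untreated, and the highest of these was untreated replicate 6. Of 16 genes of sterol uptake, storage and oxysterols, Plin2, which coats lipid droplets, rose with trap (0.32 ± 0.06, adjusted p 0.0126) and with mast cell supernatant (0.42 ± 0.05, 0.000235). The scavenger receptor gene Cd36 rose with trap supernatant (0.23 ± 0.05, 0.0423). Within batches, Plin2 passed as higher in each of the 3, and Cd36 in none. Hilpda also passed as higher in batch 1. In batch 3 Lbr, Elovl7 and Erlin1 passed as higher and Acsl1 as lower. Of all genes, 7.56%, 1.19% and 8.41% passed in batches 1, 2 and 3. The gene lists here were chosen with earlier results of these data known, so their counts are a description.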

How the data were processed

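Poly(A) RNA of 14 libraries was extracted with a Qiagen RNeasy kit and made into Illumina stranded mRNA libraries, per the labels' protocols. The authors deposited raw counts per gene, as whole numbers that were not normalised. They were made with featureCounts 2.0.0 on GRCm38, per the submitters' processing notes. No aligner, annotation or strand setting is given in those notes or labels. Total counts were 11729073 to 22720419 per library, which limits the precision of genes with few counts. Intervals cover the spread between libraries as modelled, and the labels name no molecular identifiers. Count columns were matched to labels by a name prefix and replicate number, and the prefix for mast cell supernatant was the one left after the other groups were matched.

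Symbols were looked up by Ensembl identifier (47224 of 47937 matched). Coordinates and exon lengths are from GENCODE release M21, and promoter windows from RefSeq. Counts were analysed with edgeR 4.0.16 in R 4.3.3: filterByExpr by group, TMM scaling, and a robust quasi-likelihood F test with Benjamini-Hochberg adjustment over all genes tested at 0.05. Unless another is named, an adjusted p is from this test, and SEs follow from its F statistic. Group comparisons used group and batch over all 14 libraries. Within-batch tests, the test of a difference between batches and that of untreated libraries used a model of 6 sets of libraries (untreated or either supernatant, by batch). Differences between libraries are of log2 CPM with a prior count of 1. Alternatives were DESeq2 size factors, DESeq2 1.42.0, limma-voom (limma 3.58.1), no filter, no batch term, a replicate block, leaving out a batch, and leaving out each library. The test scripts were tried on simulated counts.

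The 29 genes, the other gene lists and the tests were chosen with earlier results of these data known. Named are all members past the threshold and, in each step, the member with the largest estimate. Values by library are given for the 2 members of each step with the smallest adjusted p in any test, for Srebf2 and Insig1, and, added after their values were seen, for genes the results turn on.

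By the labels, a replicate number from 1 to 3 is also the batch of that library, which pairs libraries across groups. Deviations from group means correlated over genes at 0.298 to 0.71 in the 9 same-number pairs and at -0.592 to 0.173 in the 18 others. Number and batch coincide in these libraries, so the correlations cannot show a pairing beyond the batch. No pair within a group held identical counts, and each library was counted once. The chi-square per gene of the 28 pairs within groups was 1.82 to 14.8 in the same batch and 31.2 to 77.8 otherwise. Whether libraries of the same group and batch were separate cultures or technical repeats was not tested. The tests within batches, of a differing response and of untreated batches take their spread from libraries of the same batch. If those are technical repeats, the p-values of these tests may be too small.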

Additional observations from a re-analysis of the deposited data

Results flagged for a closer look

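Within each group, the library farthest from the others was compared with the group's whole range for each of the 29 genes, in groups of 4 to 10 libraries. The gap of that library to its neighbour, as a share of the range, passed Dixon's 95% critical value in 7 of 58 sets of libraries. Chance gives about 1 in 20 for libraries of 1 kind, but each group here holds 3 batches. Over all genes tested, 7.17% passed in the mast cell supernatant group and 5.15% in the untreated group. In 4 of the 7, untreated replicate 6 was the lowest of 6: Insig1 (share 0.808), Sqle (0.7001), Mvd (0.676) and Sc5d (0.658). In the other 3, mast cell supernatant replicate 2 was the highest of 5: Fasn (0.835), Hsd17b7 (0.8) and Msmo1 (0.778). It was the one mast cell supernatant library of batch 2, in which the untreated libraries were also high for these 3 genes.

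The response to supernatant differed between batches for Dhcr7 (adjusted p 0.00972) and Scd2 (0.0124) by edgeR's quasi-likelihood F test. Dhcr7 had log2 differences of -0.36, 0.19 and 0.27 and Scd2 of -0.96, 0.09 and 0.74 in batches 1, 2 and 3. Neither passed without untreated replicate 1 or without untreated replicate 4.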

How the results depend on the processing

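With trap or mast cell supernatant over all batches, and between the supernatants, 0 of the 29 genes passed under every alternative run. The replicate block over replicates 1 to 3 is the batch term on fewer libraries, so it is no separate check of pairing. It gave 0 of 29 in these 3 comparisons, and called 36 of all genes with trap and 84 with mast cell supernatant. Counts over all genes moved more. With trap supernatant they were 409 by DESeq2, 15 with no batch term, 116 without batch 1 and 88 without batch 2. With mast cell supernatant they were 62 with no batch term and 231 without batch 2. Between supernatants they were 11 by DESeq2 and 1 without batch 3. Within batches, no filter on low counts gave 1620, 640 and 1789 genes in batches 1, 2 and 3, and 1498 whose response differed between batches. DESeq2 gave 316 in batch 2. Of the 29, batch 3 had 5 by DESeq2 and 9 with no filter, and 7 differed in response between batches with no filter. The cause was not tested.

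Leaving out each library in turn gave 97 to 280 genes with trap supernatant, 449 to 751 with mast cell supernatant and 0 to 3 between supernatants. It gave 240 to 1282, 19 to 333 and 418 to 1844 in batches 1, 2 and 3, 235 to 1175 for a response that differed and 2751 to 4826 between untreated batches. Of the 29, it gave 0 to 4 in batch 1, 0 to 19 in batch 3, 0 to 13 for a differing response and 16 to 25 between untreated batches. The estimate of Stard4 between supernatants, 0.03, reversed to -0.0475 without batch 3 and ran from -0.0789 (without trap supernatant replicate 3) to 0.112 over the leave-one-out fits. Depth limits Scd1 most: its lowest count in a library was 9, whereas the other 28 genes had more than 10 counts in every library.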
